A study of Mus musculus with 4 samples.

Results

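The Egr family comprises 4 zinc finger transcription factors, encoded by Egr1, Egr2, Egr3 and Egr4, and the Nab proteins, encoded by Nab1 and Nab2, are corepressors that bind to Egr factors. These 6 genes were described here on arrays of cultured mouse palatal mesenchyme, the connective tissue of the palate before birth. They were found as every probe set whose only symbol in the platform annotation was 1 of the 6 names, which gave 10 probe sets, out of 18193 genes with a symbol of their own on the array. All 6 genes had at least 1 probe set. A probe set was counted as measured when its mean log2 signal over the 4 arrays was at or above the median of all probe sets, a signal of about 66.1. By this filter 5 of the 6 genes were measured, and Egr4 was not.

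The 4 cultures came from outbred wild-type embryos at embryonic day 14. One was exposed to SB431542, which inhibits the TGF-beta type I receptor kinase, for 60 minutes and then to TGF-beta2 for 120 minutes. One received 5Z-7-Oxozeaenol, an inhibitor of the Tak1 kinase called oxozeaenol below, for 60 minutes before the same stimulation. One received TGF-beta2 alone for 120 minutes, and one was left untreated. The labels give neither inhibitor doses nor how many embryos each culture came from, and a culture with an inhibitor but no TGF-beta2 was not analysed here. With 1 array per treatment there was no measure of replicate error and no test, and each difference below is between 2 single arrays. The array number limits the precision of every value.

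Egr genes are immediate early genes, transcribed within minutes of growth factor signals without need for new protein synthesis. ERK-type MAP kinases phosphorylate ETS factors such as Elk1, which sit with the serum response factor Srf on promoter elements that contain CArG boxes, and this switches Egr genes on. Egr proteins bind GC-rich DNA, and one of their known targets is Nab2, so that the corepressor can close a feedback loop. In human fibroblasts, TGF-beta is known to raise EGR1, EGR2 and EGR3.

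Promoter sequences of the Egr and Nab genes show which of these elements lie near their starts. The RefSeq promoter table of build GRCm38.p6, with windows from 250 bases before to 50 bases after a transcription start, gave the 8 windows used here, for 4 of the 6 genes, namely 5 for Egr2 and 1 each for Egr4, Nab1 and Nab2. No window of Egr1 or Egr3 was used, so their promoters were not searched and the absence of a motif there is not shown. Printed below are the windows for the gene that responded most to TGF-beta2 alone, the Egr gene that was too dim to be counted, and a corepressor whose signal was level. They are printed 5′ to 3′ on the strand of the gene. Capitals mark 3 motifs, searched on both strands: the CArG box bound by Srf, the core CGTCA of the cAMP response element (CRE), and the Egr site GCGNGGGCG.
Egr2 promoter, chr10:67537620-67537919, plus strand: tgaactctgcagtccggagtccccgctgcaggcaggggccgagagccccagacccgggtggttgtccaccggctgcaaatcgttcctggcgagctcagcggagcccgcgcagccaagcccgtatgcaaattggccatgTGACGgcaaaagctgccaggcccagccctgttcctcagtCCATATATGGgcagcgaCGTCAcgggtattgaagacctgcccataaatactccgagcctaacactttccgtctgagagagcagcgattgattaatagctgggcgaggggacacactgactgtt
Egr4 promoter, chr6:85513540-85513839, minus strand: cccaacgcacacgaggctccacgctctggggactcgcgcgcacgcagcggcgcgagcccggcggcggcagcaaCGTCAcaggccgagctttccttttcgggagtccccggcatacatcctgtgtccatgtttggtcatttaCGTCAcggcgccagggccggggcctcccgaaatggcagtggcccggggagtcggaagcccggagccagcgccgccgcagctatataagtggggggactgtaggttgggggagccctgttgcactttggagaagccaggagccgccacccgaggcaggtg
Nab1 promoter, chr1:52500399-52500698, minus strand: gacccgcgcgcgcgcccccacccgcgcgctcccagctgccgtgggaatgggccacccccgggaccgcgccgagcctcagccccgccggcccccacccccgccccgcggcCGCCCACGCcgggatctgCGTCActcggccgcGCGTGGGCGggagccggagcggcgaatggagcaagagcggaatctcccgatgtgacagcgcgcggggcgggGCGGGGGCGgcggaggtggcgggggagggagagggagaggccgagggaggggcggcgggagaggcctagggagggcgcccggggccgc
The Egr2 window holds a CArG box, CCATATATGG, 73 to 64 bases before the start, and 2 CRE cores, the nearer of them 56 to 52 bases before the start. CArG boxes occurred in 4 of the 5 Egr2 windows, of which 3 overlap and share the same box, and in none of the windows of the other 3 genes. Of all 32851 windows in the table, 1.63% held a CArG box. The Egr4 window holds 2 CRE cores, at 177 to 173 and 109 to 105 bases before its start, and 20.8% of all windows held at least 1. The core was added to the search after the Egr2 window had been read. The Nab1 window holds 3 Egr sites, at 141 to 133, 109 to 101 and 38 to 30 bases before the start, a motif that 5.55% of windows held, and 1 CRE core. The Nab2 window held none of the motifs. The full CRE TGACGTCA, which contains the core, the ETS motif CCGGAAGT and the palindromic Smad motif GTCTAGAC were in none of the 8 windows, and were in 1.79%, 3.89% and 0.213% of all windows. A match is a description of the letters and not of a bound site.

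The arrays were close in overall level, with median signals of 72.7 with SB431542, 71.6 with oxozeaenol, 68.2 with TGF-beta2 alone and 66.3 untreated, and between pairs of arrays the log2 signals of all probe sets correlated at 0.975 to 0.982, as a description. Of 8 palatal mesenchyme markers, 7 were measured, and their summed signal over the list lay between 63176 and 73189 on the 4 arrays. Vim, Col1a1 and Col1a2 made up most of that sum, and both collagen genes also stand in the Egr target list below. The marker Osr2 was below the filter, at 6.75 with SB431542, 30.4 with oxozeaenol, 30.1 with TGF-beta2 alone and 13.7 untreated. Pdgfra, a receptor for platelet-derived growth factor, read 3835 with SB431542, 3386 with oxozeaenol, 1704 with TGF-beta2 alone and 3643 untreated, and was at least 2-fold lower with TGF-beta2 over untreated and at least 2-fold higher with SB431542 over TGF-beta2 alone. The mesenchymal factor gene Twist1 read 1218, 752, 705 and 1147 on the same arrays in that order. The part of these markers in the Egr results was not tested. All 8 macrophage markers were measured too, with sums of 47286 to 55154, and macrophages are known to express Egr genes. Of 8 Schwann cell and glial markers, where Egr2 drives myelination, 3 were measured, and Sox10, a defining factor of these cells, was below the filter at 51.4 with SB431542, 92.6 with oxozeaenol, 20.7 with TGF-beta2 alone and 95.7 untreated. None of the markers on the array was at exactly 0. In such bulk RNA, fewer cells of a type and less RNA per cell cannot be told apart.

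Egr1 is the most widely studied member of the family and responds to growth factors, stress and injury. Its single probe set, 1417065_at, read 5195 with SB431542, 171 with oxozeaenol, 10257 with TGF-beta2 alone and 4389 untreated. The oxozeaenol array stood far below the other 3, and the SB431542 and untreated arrays lay next to each other. With TGF-beta2 alone Egr1 was 2.33-fold higher than untreated, and with oxozeaenol it was 53.2-fold lower than with TGF-beta2 alone. Folds and log2 changes are on the scale of log2(signal + 21.7), which understates changes of dim genes.

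Egr2 is known for its part in hindbrain patterning and in myelination by Schwann cells. The brighter of its 2 probe sets, 1427683_at, read 236 with SB431542, 95.2 with oxozeaenol, 3154 with TGF-beta2 alone and 461 untreated. Here the TGF-beta2 array stood far above the other 3, and both inhibitor arrays lay below the untreated one. The other, 1427682_a_at, read 248, 63.5, 2176 and 465 on the same arrays in that order. The probe sets gave the same order of arrays, and their log2 changes with TGF-beta2 over untreated were 2.72 and 2.17.

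Egr3, needed in mice for muscle spindle development, is a known target of Egr1 in other cells. Its brighter probe set, 1436329_at, read 281 with SB431542, 42.2 with oxozeaenol, 605 with TGF-beta2 alone and 354 untreated. The order of arrays was that of Egr2, with a smaller step above the untreated level. Its other probe set, 1421486_at, was below the filter and read 62.1 with SB431542, 20.9 with oxozeaenol, 68.9 with TGF-beta2 alone and 96.6 untreated. That dim probe set also had its lowest signal with oxozeaenol, but its untreated signal was above that with TGF-beta2 alone. The direction of the Egr3 change with TGF-beta2 therefore differed between its probe sets, at 0.74 and −0.38 on the log2 scale. With SB431542 over TGF-beta2 alone the log2 change was −1.05 for the brighter probe set and −0.11 for the dim probe set. With oxozeaenol they were −3.29 and −1.09 over TGF-beta2 alone, and −2.24 and −0.98 over SB431542. Folds, ranks and counts of Egr3 below use the brighter probe set.

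Egr4, known for its role in male germ cell maturation in mice, had 1 probe set, 1449977_at, which read 14.6 with SB431542, 74.7 with oxozeaenol, 87.6 with TGF-beta2 alone and 25.3 untreated. It was the 1 Egr probe set whose oxozeaenol reading was near that with TGF-beta2 alone. Both of these readings were just over the filter level and the other 2 were under it, so Egr4 enters no count below.

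The corepressor genes were level by comparison. The brightest of the 3 Nab1 probe sets, 1417624_at, read 3926 with SB431542, 4044 with oxozeaenol, 3949 with TGF-beta2 alone and 4042 untreated. The second read 542 with SB431542, 638 with oxozeaenol, 448 with TGF-beta2 alone and 472 untreated, and the third was below the filter at 33.1 to 53.3. The Nab2 probe set, 1417930_at, read 665 with SB431542, 515 with oxozeaenol, 659 with TGF-beta2 alone and 797 untreated. Untreated was the highest and oxozeaenol the lowest of the 4 Nab2 readings, a span of 0.61 on the log2 scale.

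**Figure D1:**
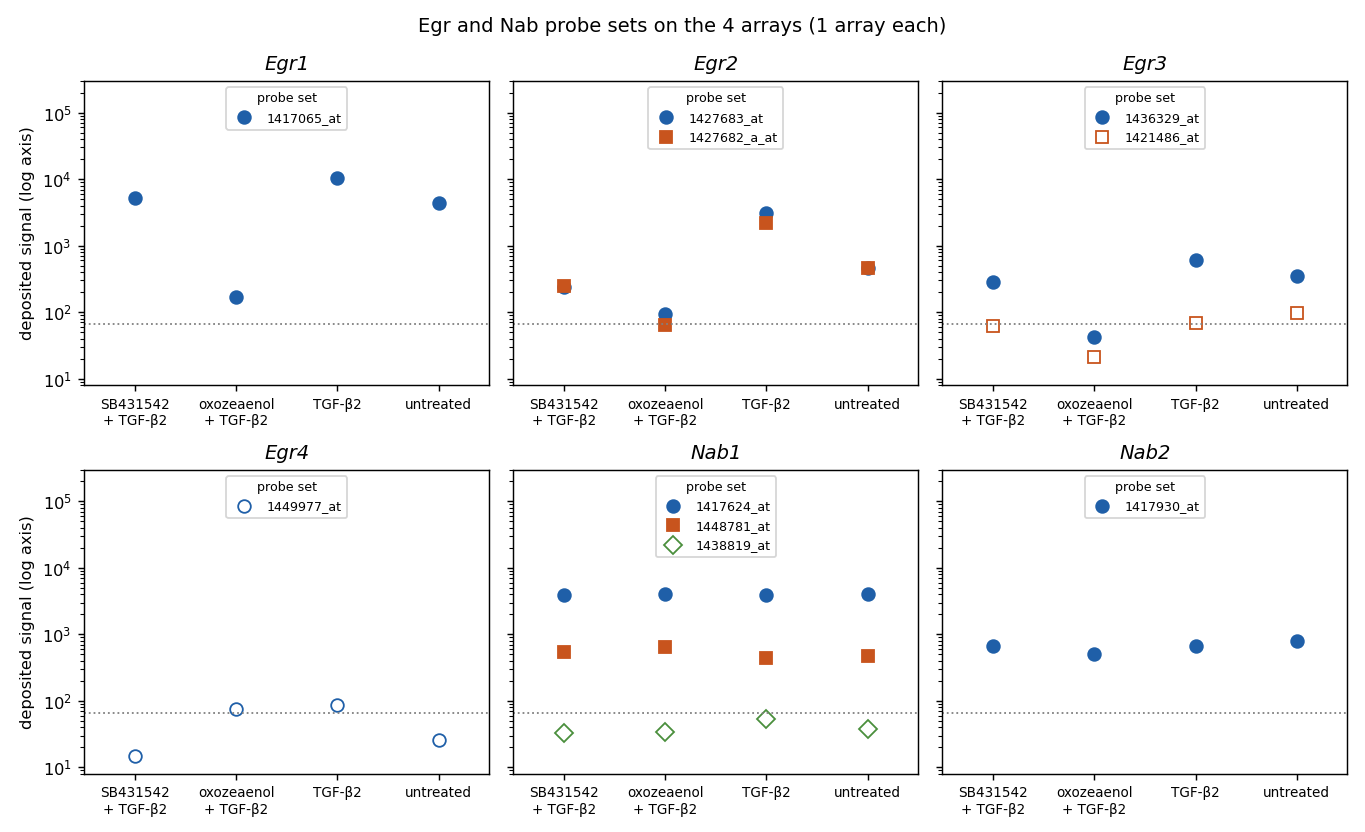
Deposited signals, on a log axis, of all 10 Egr and Nab probe sets on the 4 arrays, 1 point per array, with open symbols for the 3 other Egr3, Egr4 and Nab1 probe sets below the filter and a dotted line at the filter level of 66.1. Egr1 reads 10257 with TGF-beta2 alone and 171 with oxozeaenol, while the brightest Nab1 probe set stays between 3926 and 4044.

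The first comparison asks which of these genes respond to 120 minutes of TGF-beta2. Egr2 was 6.57-fold higher and Egr1 2.33-fold higher than untreated, so 2 of the 5 measured genes were at least 2-fold higher, where 0.673% of all 11744 measured genes were. None of the 5 was at least 2-fold lower, where 0.366% of all genes were. Egr2 had the second largest increase of all measured genes, and Egr1 the 46th. Egr3 was 1.67-fold higher, which 1.69% of genes exceeded. Nab2 had a log2 change of −0.27 and Nab1 of −0.03, both inside the range from −0.58 to 0.64 that held the central 95% of all genes. The median over the 5 genes was 0.74, beside −0.03 over all genes.

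The second comparison asks what the receptor inhibitor does to these levels. With SB431542, Egr2 was 12.3-fold lower than with TGF-beta2 alone, the second largest decrease of all genes, and Egr3 was 2.07-fold lower. Thus 2 of 5 genes were at least 2-fold lower, where 1.18% of all genes were, and none was at least 2-fold higher, where 0.613% were. Egr1 was 1.97-fold lower, just short of 2-fold, a size that 1.23% of genes exceeded in that direction. Egr1 and Egr3 thus lay on either side of the threshold, and the count ran from 1 with the pseudocount at the median of all signals, where Egr3 was at −0.95, to 3 with median centring, where Egr1 was at −1.05. With no filter Egr4 was also counted as lower, at −1.59. Nab1 and Nab2 had log2 changes of −0.01 and 0.01.

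Set against the untreated culture, SB431542 left Egr1 1.18-fold higher and Egr3 1.24-fold lower, both inside the central 95% of all genes. Egr2 was 1.88-fold lower than untreated, and its 2 probe sets gave log2 changes of −0.91 and −0.85. This was outside the central 95%, and 0.562% of genes had a larger decrease. None of the 5 genes was at least 2-fold higher or lower, where 0.468% and 0.383% of all genes were, but with each array centred on its median Egr2 passed 2-fold, at −1.01.

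The third comparison asks what oxozeaenol does to these levels. No reading of Tak1 activity was part of the data used here. With oxozeaenol, 3 of the 5 measured genes were at least 2-fold lower than with TGF-beta2 alone, where 2.17% of all genes were, and none was at least 2-fold higher, where 1.82% were. Egr1 had the largest decrease of all 11744 genes, Egr2 the third largest at 27.2-fold, and Egr3 the 16th at 9.81-fold. Egr3 with oxozeaenol read below the filter level, and its decrease therefore depends on the pseudocount. Nab2 was 1.27-fold lower, and the 2 measured Nab1 probe sets had log2 changes of 0.03 and 0.49.

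Oxozeaenol also left the Egr genes far below the untreated culture. Egr1 was 22.9-fold lower than untreated, the second largest decrease of all genes, Egr3 5.88-fold lower and Egr2 4.13-fold lower. These 3 of 5 compare with 1.51% of all genes at least 2-fold lower, and none of the 5 was among the 1.49% that were at least 2-fold higher. Nab2 was 1.52-fold lower than untreated, and 4.85% of genes had a larger decrease. Of 11744 genes, 15 passed 2-fold above untreated with TGF-beta2 and 2-fold below untreated with oxozeaenol, and Egr1 and Egr2 were among them. This comparison shares its untreated array with the first, so an error there would move both.

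The inhibitors differed most for Egr1. Oxozeaenol over SB431542, both with TGF-beta2, gave a 27.0-fold lower signal of Egr1, 4.73-fold lower of Egr3 and 2.20-fold lower of Egr2. Again 3 of 5 genes were at least 2-fold lower, where 1.30% of all genes were, and 0 were at least 2-fold higher, where 1.51% were. For Egr2 the oxozeaenol signal was near the filter level, and its difference between inhibitors was within 2-fold with the larger pseudocount.

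Some markers of other cell types also stood apart on the oxozeaenol array. The summed signal of 8 epithelial markers was 1951 with SB431542, 5723 with oxozeaenol, 1872 with TGF-beta2 alone and 1928 untreated. Of the 7 that were measured, 2 were at least 2-fold higher with oxozeaenol than with TGF-beta2 alone, the basal epithelial keratins Krt14, at 2218 against 295, and Krt5, at 1383 against 233. Of all genes, 1.82% were at least 2-fold higher in that comparison and 2.17% at least 2-fold lower. The sum over the 8 macrophage markers was 47286 with oxozeaenol and 52349 with TGF-beta2 alone, and none of the 8 differed by 2-fold. Of 3 measured skeletal muscle markers, Des, the intermediate filament gene desmin, read 289 with SB431542, 80.2 with oxozeaenol, 269 with TGF-beta2 alone and 273 untreated, a log2 change of −1.51 with oxozeaenol over TGF-beta2 alone. The others of these 3, Myod1 and Actc1, had log2 changes of 0.03 and −0.14 in that comparison, so Des alone passed 2-fold. The part of these cell types in the Egr signals was not tested.

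**Figure D2:**
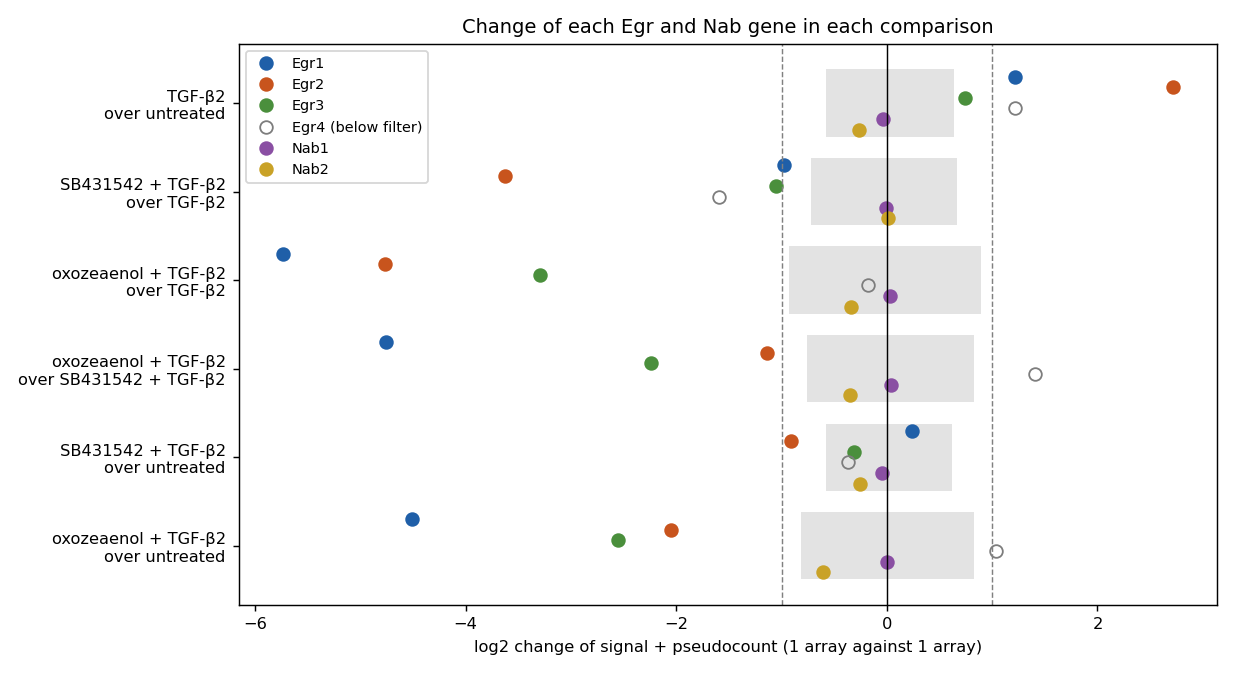
Log2 change of each gene's brightest probe set in each of the 6 comparisons, 1 array against 1 array, with grey bars for the central 95% of all measured genes and dashed lines at 2-fold. The filled Egr points lie left of the bars in all 3 oxozeaenol comparisons, while the Nab1 and Nab2 points stay inside the bars in all 6.

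Genes with the most similar pattern were found by the Euclidean distance between 3 log2 changes, those with TGF-beta2 over untreated and with each inhibitor over TGF-beta2 alone. The changes come from 4 arrays and share the TGF-beta2 array. For Egr1 the 5 nearest genes were Dusp6, Rgs1, Dusp4, Phlda1 and Hbegf, at distances of 1.19 to 1.82 log2 units. Of these, Rgs1 (57.9) and Dusp4 (32.9) read below the filter level with oxozeaenol. Dusp6, which encodes a phosphatase of ERK, had log2 changes of 0.31 with TGF-beta2, −0.40 with SB431542 and −5.24 with oxozeaenol, beside 1.22, −0.98 and −5.73 for Egr1. Dusp4 encodes another MAP kinase phosphatase and Hbegf a ligand of the EGF receptor.

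For Egr2 the nearest genes were Il11, Lif, Il6, Sphk1 and Has2, at 0.86 to 2.41 log2 units. Il11, a cytokine of the interleukin-6 family, read 265 with SB431542, 105 with oxozeaenol, 2736 with TGF-beta2 alone and 663 untreated. Lif and Il6 encode cytokines of the same family, Sphk1 a sphingosine kinase and Has2 a hyaluronan synthase. With TGF-beta2 all 5 had at least 2 times the untreated level, with log2 changes of 1.17 to 2.20. For Egr3 they were Errfi1, Meox1, Sema7a, Lmcd1 and Trib1, at 0.14 to 0.46 log2 units. With oxozeaenol, Meox1 (27.6), Lmcd1 (14.1) and Trib1 (8.01) read below the filter level, as Egr3 did, while Errfi1 (683) and Sema7a (188) did not. The distances to Egr3 therefore depend on the pseudocount. Errfi1, a feedback inhibitor of the EGF receptor, had log2 changes of 0.82, −1.17 and −3.27, beside 0.74, −1.05 and −3.29 for Egr3. The Egr and Nab genes themselves were left out of this search. The distances among the Egr genes were 2.49 between Egr1 and Egr3, 3.19 between Egr1 and Egr2 and 3.56 between Egr2 and Egr3.

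**Figure D3:**
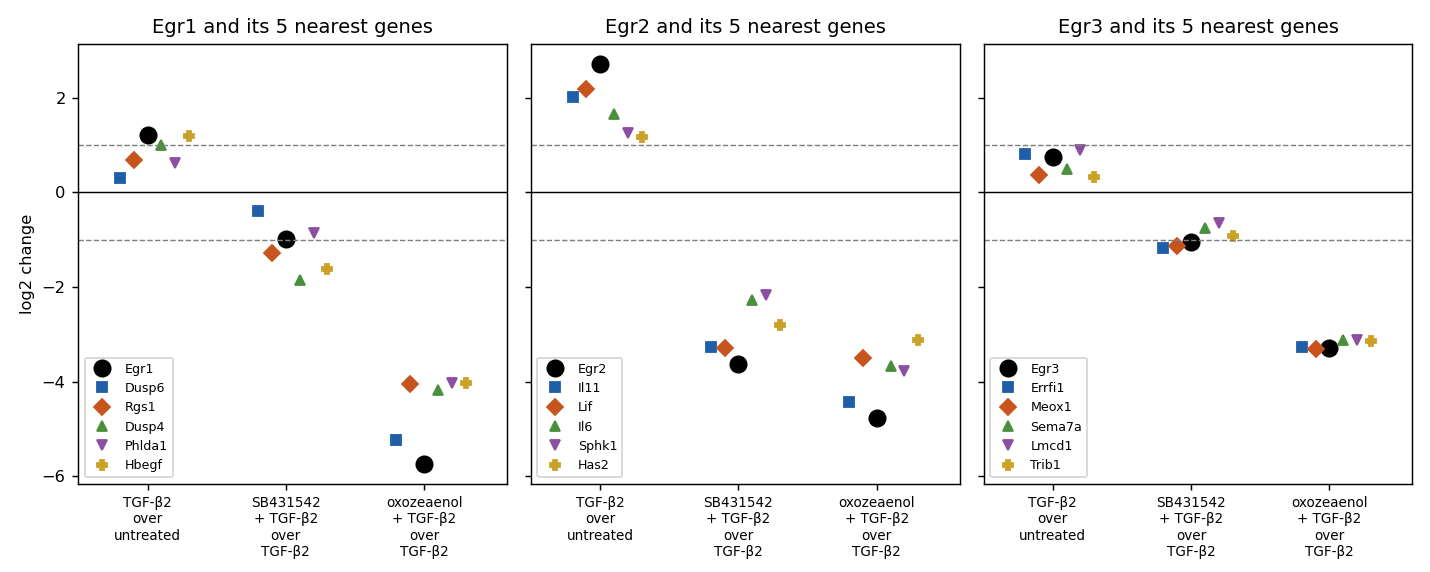
Log2 changes of Egr1, Egr2 and Egr3 (black circles) and of the 5 genes with the smallest distance to each, with TGF-beta2 over untreated and with each inhibitor over TGF-beta2 alone, 1 array against 1 array. Errfi1 lies at a distance of 0.14 log2 units from Egr3. Egr1 has the lowest value of all 11744 measured genes with oxozeaenol over TGF-beta2 alone, so all its neighbours lie above it there.

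Of 15 kinases and transcription factors that act upstream of Egr genes, 11 were measured, and none was at least 2-fold higher or lower in any of the first 3 comparisons. For each direction, 0.366% to 2.17% of all genes were, so the count is near those shares. Srf read 943 with SB431542, 1334 with oxozeaenol, 1440 with TGF-beta2 alone and 1209 untreated. Elk3, an ETS factor, had a log2 change of −0.90 with oxozeaenol over TGF-beta2 alone. Rps6ka5, which encodes the nuclear kinase Msk1, was the 1 member past 2-fold in another comparison, at 217 with oxozeaenol and 56.0 untreated, a dim signal. Of all genes, 1.49% were at least 2-fold higher there.

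Of 22 genes reported as Egr targets in other cells, 17 were measured. Over untreated, 2 were past 2-fold with TGF-beta2, both higher. The shares of all genes past 2-fold there were 0.673% upward and 0.366% downward. These 2 targets were the angiogenic factor gene Vegfa, by 1.37, and the platelet-derived growth factor gene Pdgfb, by 1.13 on the log2 scale. The list's median was 0.19, beside −0.03 over all genes. With SB431542 over TGF-beta2 alone, 3 were at least 2-fold lower, where 1.18% of all genes were. They were Vegfa (−1.62), Pdgfb (−1.37) and the stress gene Gadd45b (−1.25). With oxozeaenol over TGF-beta2 alone, 4 were at least 2-fold lower and 1 higher, where 2.17% and 1.82% of all genes were. The lower ones were Vegfa (−2.05), Pdgfb (−1.34), F3 (−1.26), which encodes tissue factor, and Pdgfa (−1.09), another platelet-derived growth factor gene, and the list's median was −0.31, beside 0.05 over all genes. The higher one was the heparanase gene Hpse at 1.02, which was named after its value was seen.

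Against untreated, where Egr1, Egr2 and Egr3 were 4.13-fold to 22.9-fold lower with oxozeaenol, 0 of the 17 targets were at least 2-fold lower, beside the 1.51% of all genes that were, so the count is near that share. F3 had the largest decrease of the 17, at −0.75, followed by Ccnd1 at −0.69. Vegfa was at −0.67, Pdgfb at −0.21 and Pdgfa at −0.36. Gadd45b was higher at 1.03, with signals of 7132 with oxozeaenol and 3470 untreated, and 1.49% of all genes were at least 2-fold higher. The median of the targets in this comparison was −0.13, beside 0.03 over all genes.

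Other early genes give a scale for the Egr changes. Of 8 AP-1 genes, which encode partners in another immediate early factor, Junb alone passed 2-fold with TGF-beta2 over untreated, at 1.34, and also with SB431542 over TGF-beta2 alone, at −1.89. Of all genes, 0.673% were at least 2-fold higher in the first of these comparisons and 1.18% lower in the second. With oxozeaenol, 5 of 8 AP-1 genes were at least 2-fold lower than with TGF-beta2 alone, where 2.17% of all genes were. The median of the 8 was −1.13, and Fosl1 (−2.90) and Fos (−2.86) were the lowest. Among 15 measured genes of the other early list, oxozeaenol gave decreases of 2-fold or more in 9, beside the same 2.17% of all genes. Myc (−2.86) and Maff (−2.82) were lowest, and the median was −1.04. All of these were smaller decreases than that of Egr3, at −3.29, but with the pseudocount at the median of all signals Egr3 was at −2.59 and 4 of these early genes were lower, the lowest being Myc at −2.69. Egr1 and Egr2 stayed below every one of them in that comparison under each alternative. Over untreated, oxozeaenol left 2 of 8 AP-1 and 6 of 15 other early genes at least 2-fold lower, where 1.51% of all genes were. There Fosl1 (−2.72), Fos (−2.52), Myc (−2.36) and Maff (−2.06) were below Egr2 (−2.05), and Fosl1 also below Egr3 (−2.55). Over SB431542, Fosl1 (−2.58), Myc (−2.41), Klf2 (−2.36) and Fos (−2.28) were below Egr3 (−2.24) and Egr2 (−1.14). Egr1 was below them all in both. Of 8 Smad feedback genes, several of which Smad factors are known to induce, none passed 2-fold with TGF-beta2 over untreated, and their median was 0.40. For that comparison 0.673% of all genes were higher and 0.366% lower. Over TGF-beta2 alone, 3 of the 8 were at least 2-fold lower with SB431542, namely Skil (−1.41), Ldlrad4 (−1.39) and Pmepa1 (−1.13), and 4 with oxozeaenol. The shares of all genes at least 2-fold lower were 1.18% and 2.17%. With the mean of all kept probe sets, the Smad count was 2 for each inhibitor. A difference between the Egr genes and these lists could not be tested with 1 array each.

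**Figure D4:**
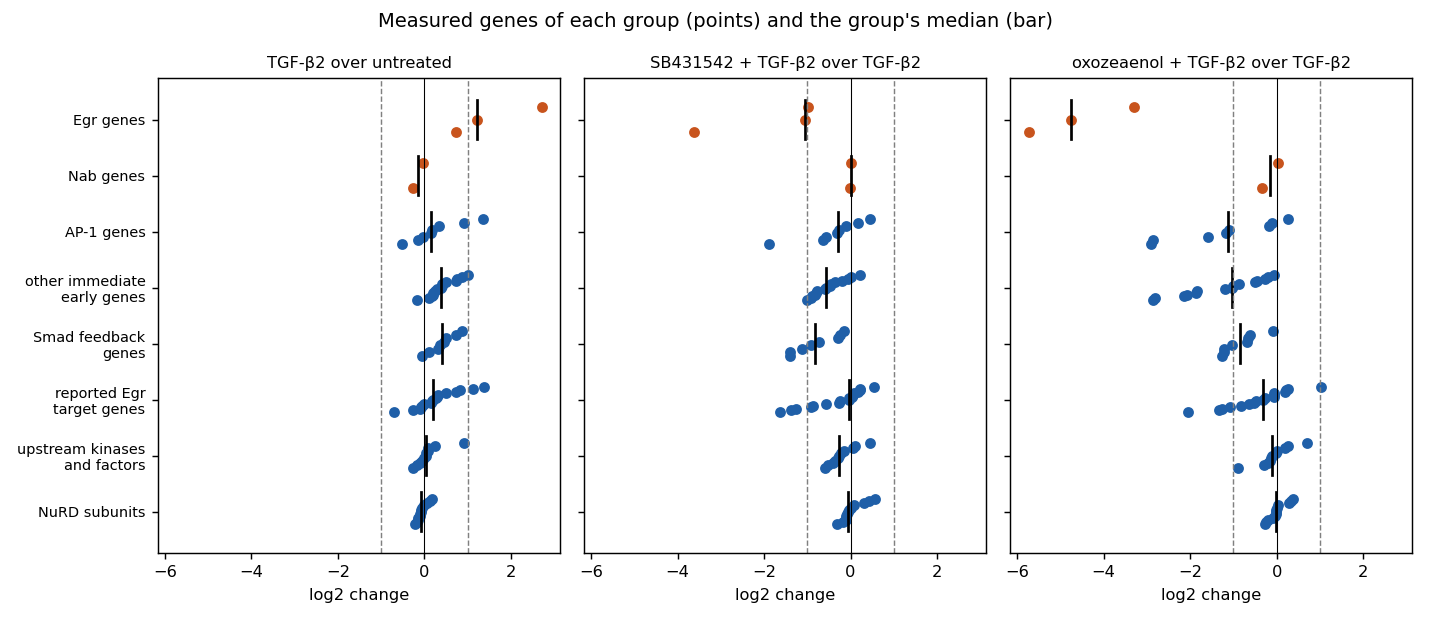
Log2 changes of all measured genes in each group (points, each 1 gene from 1 array against 1 array) and the group's median (bar) in 3 comparisons, with dashed lines at 2-fold. With oxozeaenol over TGF-beta2 alone the 3 Egr genes lie between −5.73 and −3.29, left of every AP-1 and other early gene shown. For Egr3 this order does not hold with the larger pseudocount. The Nab and NuRD points lie near 0.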

How the data were processed

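RNA of 4 cultures was measured, with 1 Affymetrix array each. Biotin-labelled targets were made from 500 ng of RNA, per the labels. The deposited table holds linear intensities for 45101 probe sets. GCOS is named in the submitters' processing notes, with summary algorithm and settings not given in the sources used here. Each array's mean without the lowest and highest 2% of probe sets was 500.003, so the arrays had been scaled to a common level.

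From these, 64 control probe sets were left out. Of 45037 others, 34945 had 1 symbol in the platform annotation, 932 several and 9160 none; 34741 of the first also matched a RefSeq gene. The pseudocount was the 25th percentile of all values, 21.7. The brightest of the 20064 kept probe sets with 1 symbol stood for its gene, giving 11744 genes. Counts use a 2-fold rule of size. The arithmetic of changes and calls was tested on simulated data, which says nothing of the error between cultures. All probe sets of the 6 genes were named, and of each list up to 4 members per comparison with the largest change of at least 2-fold, or the 2 largest where none reached it, plus the 5 nearest genes. Members and lists were chosen with earlier results of these data known. Python 3.11.15, numpy 2.4.6 and pandas 2.3.3 were used. Alternatives were other pseudocounts, filters and scalings, and the mean of all kept probe sets.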

Additional observations from a re-analysis of the deposited data

Results flagged for a closer look

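Egr4 was left out of the counts because its probe set was below the filter, but on 2 arrays its signal was at least 2-fold above the untreated one. Its log2 change over untreated was 1.22 with TGF-beta2 alone and 1.04 with oxozeaenol and TGF-beta2, from signals of 87.6 and 74.7 against 25.3 untreated. The part of dim readings in this difference was not tested.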

How the results depend on the processing

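No replicate could be left out and no paired analysis was possible because each treatment had 1 array. All 204 log2 changes of the 5 measured genes under the 7 alternatives kept their direction if past 2-fold, and 200 kept their side of 2-fold. With the pseudocount at the median, Egr3 with SB431542 over TGF-beta2 alone was −0.95, which left 1 Egr gene at least 2-fold lower there instead of 2, and Egr2 with oxozeaenol over SB431542 was −0.89. The stricter filter dropped Egr3 and also left 1. Median centring moved Egr1 with SB431542 over TGF-beta2 alone to −1.05 and Egr2 with SB431542 over untreated to −1.01, giving 1 gene at least 2-fold lower there instead of 0. It removed median offsets of 0.10 with SB431542, 0.08 with oxozeaenol and 0.03 with TGF-beta2 alone over untreated. With no filter Egr4 entered, with 1 gene higher with oxozeaenol over SB431542 and 1 higher with oxozeaenol over untreated, instead of 0. Egr4 also added 1 to the genes higher with TGF-beta2 over untreated, at 1.22. It added 1 to those lower with SB431542 over TGF-beta2 alone, at −1.59. With oxozeaenol over TGF-beta2 alone the range was −5.86 to −5.42 for Egr1, −4.97 to −4.29 for Egr2 and −3.67 to −2.59 for Egr3. Of 588 list counts, 559 stayed within 1.5 times. Counts over all genes moved more. Higher and lower genes numbered 30 to 351 and 17 to 278 with TGF-beta2 over untreated (79 and 43 as reported), 22 to 463 and 62 to 405 with SB431542 over TGF-beta2 alone (72 and 139), and 64 to 587 and 149 to 512 with oxozeaenol over TGF-beta2 alone (214 and 255). They numbered 46 to 527 and 85 to 473 with oxozeaenol over SB431542 (177 and 153), 8 to 457 and 6 to 258 with SB431542 over untreated (55 and 45), and 47 to 564 and 99 to 359 with oxozeaenol over untreated (175 and 177). In each case the highest count was with no filter and the lowest with the stricter filter.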

Other observations

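All 13 subunits of NuRD, the chromatin remodelling complex that Nab2 can recruit through Chd4, were measured, and none was at least 2-fold higher or lower in any of the 6 comparisons. For each direction, 0.366% to 2.17% of all genes were, so the count is near those shares. The largest NuRD change was that of Mta3 with SB431542 over TGF-beta2 alone, at 0.57 on the log2 scale, and the list's medians lay between −0.10 and −0.02. Chd4 itself read 1122 with SB431542, 1051 with oxozeaenol, 1068 with TGF-beta2 alone and 1026 untreated.

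Of 5 other zinc finger factors that bind GC boxes, 4 were measured and none was past 2-fold in any comparison. This count too is near the shares of all genes, 0.366% to 2.17% for each direction. Sp3 had a log2 change of 0.78 with oxozeaenol over TGF-beta2 alone, and Sp4, a dim gene, of −0.86 with TGF-beta2 over untreated and −0.96 with SB431542 over untreated, both outside the central 95% of all genes.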
